A study of Bos taurus with 12 samples.

Results

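The carriers that bring amino acids across the membrane of the mammary epithelial cell were examined as a group of 9 genes: SLC7A5, SLC3A2, SLC1A5, SLC1A4, SLC38A1, SLC38A2, SLC7A1, SLC7A8 and SLC36A1. Members were the non-control array probes whose RefSeq accession, read without its version, belonged to 1 of these gene symbols. Of the 9 genes, 7 were matched, by 16 of the 43653 probes. SLC38A1, the other system A carrier, and SLC36A1, a proton-coupled carrier, had no matched probe and were not analysed here. In all, 12639 genes were named on the array in this way.

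Mammary gland (MG) tissue from 12 Holstein cows was measured, with 1 single-color Agilent array per cow. The 6 control cows (CONT) had free access to a lactation diet, whereas the 6 restricted cows (REST) received for 4 days a ration in which barley straw made up 48% of the dry matter. The diets began at 24 ± 3 days in milk in multiparous cows without known illness. Every cow of both groups was given 50 µg of E. coli lipopolysaccharide (LPS) into a healthy rear gland of the udder on day 3, and the biopsy was taken 24 h later, so that all values describe challenged glands. No unchallenged gland was measured here, and cows are the replicates.

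Milk protein synthesis draws large amounts of amino acids from blood, and essential amino acids can enter the epithelial cell only through carriers. SLC7A5 (LAT1) exchanges an internal amino acid for an external large neutral amino acid such as leucine and works at the membrane only in a complex with the heavy chain SLC3A2 (CD98). The carriers SLC1A5 and SLC38A2 supply glutamine and other small neutral amino acids, which feed such exchange, and leucine that has entered activates the kinase complex mTORC1 at the lysosome. When amino acids are short or the endoplasmic reticulum is stressed, the transcription factor ATF4 raises many carriers and enzymes of amino acid synthesis.

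All levels below are log2 spot intensities after subtraction of the array's 75th percentile, and a difference is REST minus CONT on this log2 scale. Levels of different probes are not comparable with each other, because each probe binds and labels with its own strength. Where a gene had several probes, the probe with the highest mean signal stood for it. The 75th percentile intensity ranged from 577.1 to 1183.9 in CONT and from 386.9 to 1082.0 in REST. The arrays lay on 3 slides, of which slide 1 held 3 CONT and 1 REST, slide 2 held 1 CONT and 3 REST, and slide 3 held 2 of each. Negative control spots were brighter on slide 1 (median intensity 7.07 to 17.3) than on slides 2 and 3 (3.44 to 4.98). The tissue carried the marks of lactating epithelium, since all 5 measured milk protein genes, all 4 simple-epithelium keratins KRT7, KRT8, KRT18 and KRT19, and EPCAM were well above background on every array. Biopsies hold several cell types, and fewer cells of a type cannot be told apart from less RNA per cell.

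None of the 7 measured transporters was called different between diets. Of the 43653 probes, 1143 had an unadjusted p under 0.05 (2.62%), and 0 of the 16 member probes were among them. At the Westfall-Young threshold of 0.05, limma called 0 probes of the whole array and 0 members, and Benjamini-Hochberg adjustment also called 0. Among all probes, 0.128% had REST and CONT values that did not overlap, and this was true of 0 member probes. Of the 7 genes, 5 had a higher mean in REST and 2 a lower one, with a median difference of 0.05, or 0.06 without SLC7A1. These signs do not hold: without SLC7A1, 5 of 6 were higher in the fit as given, 3 of 6 under median scaling, where SLC3A2 and SLC38A2 turn, and 1 of 6 with slide as a block, where SLC7A5, SLC1A5, SLC1A4 and SLC38A2 turn and the median is -0.08. Over all 12639 named genes the median difference was -0.034, and 43.5% were higher in REST. The 95% confidence intervals (CI) of the members set out below differ greatly in width. Those of SLC3A2 and SLC38A2 are the narrowest, and they still span fold changes of 0.71 to 1.45 and 0.77 to 1.40.

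SLC7A5, the light chain that carries leucine, varied more between cows than any other member. In CONT its level was lowest at 0.68, 2.85 at the median and highest at 4.42, and in REST it was 1.21, 2.10 and 5.84. The groups overlapped almost fully, with the lowest value in CONT cow 8027 and the highest in REST cow 1015. CONT averaged 2.77 ± 1.52 and REST 2.90 ± 1.80 (SD, n = 6 each). This gave a difference of 0.13 (SE 0.86, 95% CI -1.75 to 2.0) with a limma Westfall-Young adjusted p of 1 and an exact permutation p of 0.896. The interval spans fold changes (FC) from 0.30 to 4.0. A second SLC7A5 probe followed the first closely over cows (r = 0.99) and had a difference of 0.17. The third probe was dim, well above background in 5 CONT and 5 REST cows, and had a difference of 0.04.

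SLC7A5 values were not spread evenly, because no cow lay between 2.12 and 3.76. Above this gap were 3 CONT cows (9040, 1076 and 0015) and 2 REST cows (0049 and 1015), and below it 3 CONT and 4 REST cows. Of the 5 upper cows, 3 were on slide 2, 1 on slide 1 and 1 on slide 3. Within slides, the REST minus CONT difference was -1.39 on slide 1, 0.36 on slide 2 and -0.62 on slide 3. With slide as a block it was -0.56, opposite in sign to the value without it, and the adjusted p remained 1. Leaving out REST cow 1015 gave -0.46, and leaving out REST cow 0078 gave 0.46.

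SLC3A2, the heavy chain that SLC7A5 needs to reach the membrane, was among the steadier members. CONT values were 1.82 at the lowest, 2.40 at the median and 3.01 at the highest, and REST values 1.98, 2.27 and 2.84. All REST cows lay inside the CONT range. The means were 2.38 ± 0.46 and 2.40 ± 0.34 (SD, n = 6 each), a difference of 0.02 (SE 0.23, 95% CI -0.48 to 0.53), with a limma adjusted p of 1. The corresponding FC interval was 0.71 to 1.45. The other SLC3A2 probe correlated with it over cows (r = 0.82) and had a difference of -0.03.

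**Figure D1:**
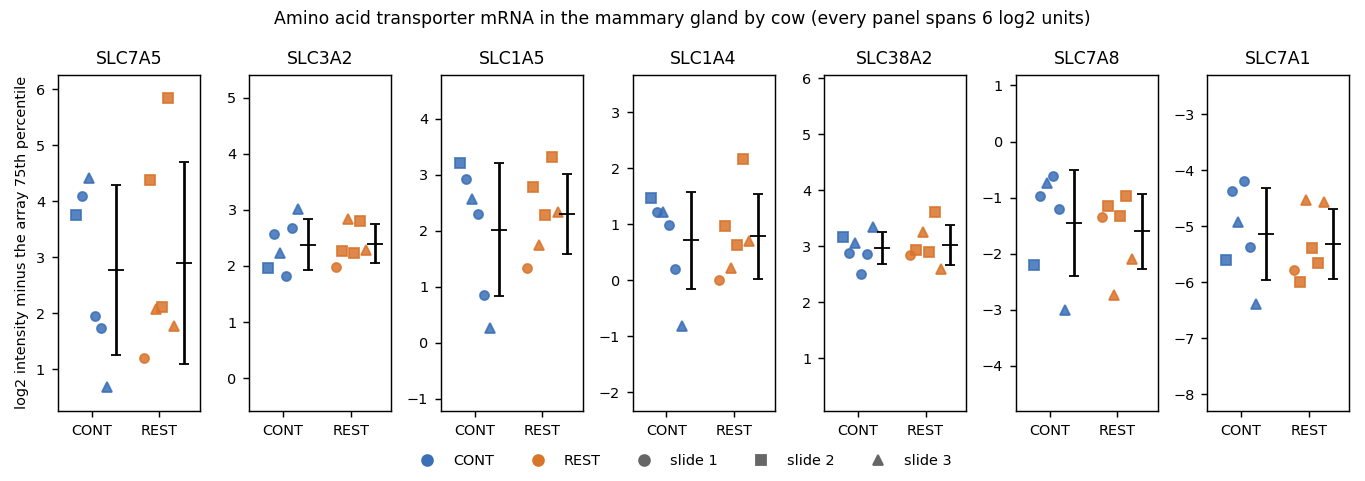
Level of each measured member by cow, as log2 intensity minus the array's 75th percentile. Points are cows, marker shapes are slides, and the bar is the mean ± SD of 6 cows. Every panel spans the same number of log2 units but has its own origin, so panels can be compared for spread and not for height. The diets overlap in every panel, and SLC7A5 runs from 0.68 to 5.84 whereas SLC38A2 runs from 2.51 to 3.62.

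SLC1A5 (ASCT2), an exchanger of glutamine and other neutral amino acids, had the largest difference among the brightest probes, and it was still within the spread of the cows. Its CONT values were 0.26 at the lowest, 2.43 at the median and 3.20 at the highest, and its REST values 1.33, 2.31 and 3.31. The 2 lowest levels, 0.26 and 0.85, belonged to CONT cows 8027 and 0055. The difference was 0.28 (SE 0.51, 95% CI -0.83 to 1.40), with a limma adjusted p of 1 and an exact permutation p of 0.619. Without CONT cow 8027 it was -0.07, and with slide as a block it was -0.08.

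SLC1A4 (ASCT1) exchanges alanine, serine and cysteine. The level ran from -0.82 to 1.46 in CONT, with a median of 1.1, and from 0.01 to 2.16 in REST, with a median of 0.67. The highest level belonged to a REST cow and the lowest to a CONT cow, with all others between them. The difference was 0.07 (SE 0.43, 95% CI -0.87 to 1.01), with a limma adjusted p of 1, and it was -0.19 with slide as a block. Its other probes were dim, well above background in 4 CONT and 5 REST cows for the first and in 2 CONT and 3 REST cows for the second. Their differences, 0.55 and 0.16, rest partly on cows in which the probe was not well above background.

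SLC38A2 (SNAT2), the sodium-coupled system A carrier known to rise in cells deprived of amino acids, was the most even member over cows. It ran from 2.51 to 3.35 in CONT, with a median of 2.98, and from 2.60 to 3.62 in REST, with a median of 2.91. The difference was 0.05 (SE 0.20, 95% CI -0.38 to 0.49), equal to an FC between 0.77 and 1.40, with a limma adjusted p of 1, and it was -0.09 with slide as a block. The 4 other SLC38A2 probes were well above background on every array, and their differences ran from -0.06 to 0.23. Agreement among the 5 probes over cows ranged from r = 0.29 to r = 0.92.

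SLC7A8 (LAT2), another light chain that pairs with SLC3A2, had levels of -3.0 to -0.61 in CONT, with a median of -1.09, and of -2.74 to -0.98 in REST, with a median of -1.33. Every REST cow fell inside the CONT range, and the difference was -0.15 (SE 0.44, 95% CI -1.09 to 0.80), with a limma adjusted p of 1. By slide it was -0.41, 1.05 and -0.54. SLC7A1 (CAT-1), the carrier of arginine and lysine, was well above background in 0 CONT and 2 REST cows. Its signal ran from -6.39 to -4.20 in CONT and from -5.99 to -4.54 in REST. These signals set only an upper bound in most cows, and no fold is given.

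**Figure D2:**
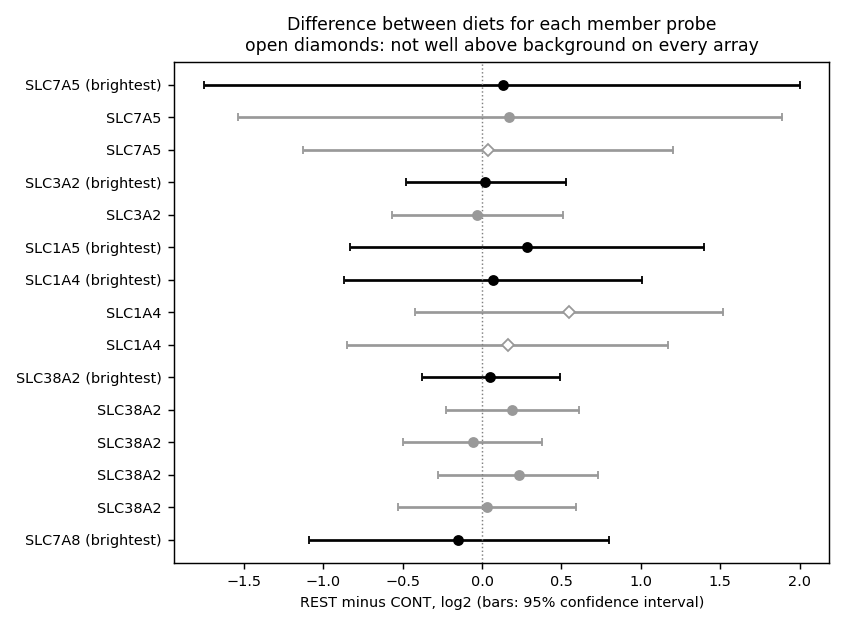
REST minus CONT difference (log2) with its 95% confidence interval from limma for 15 probes of 6 members. SLC7A1 is left out because its probe was not well above background in any CONT cow. Every interval includes 0, and the intervals of SLC38A2 and SLC3A2 are the narrowest while that of the brightest SLC7A5 probe, -1.75 to 2.0, is the widest.

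The spread between cows fed the same diet differed widely among members. For SLC7A5 the within-diet SD was 1.67, larger than in 99.4% of the 9000 genes that were well above background and complete on all 12 arrays. From the lowest cow to the highest, SLC7A5 signal rose 35.8-fold. SLC1A5, SLC7A8 and SLC1A4 had within-diet SDs of 0.98, 0.82 and 0.81, larger than in 95.5%, 92.5% and 92.2% of those genes. In contrast, SLC3A2 and SLC38A2 had SDs of 0.40 and 0.33 (62% and 48.4%), next to a median over genes of 0.33. The heavy chain ranged 2.3-fold between cows and its light chain SLC7A5 35.8-fold. Under quantile normalization the SLC7A5 SD was 1.63.

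**Figure D3:**
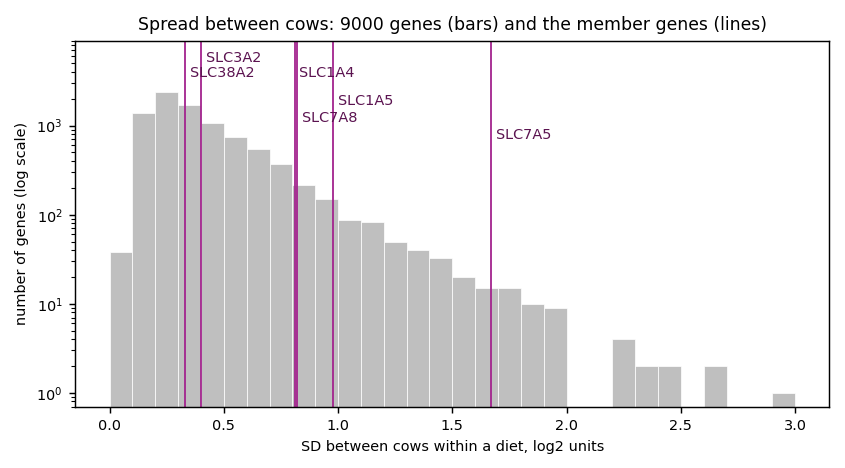
Within-diet SD between cows (log2 units) of 9000 genes, as a histogram with a logarithmic count axis, and of 6 members, as lines. SLC38A2 and SLC3A2 lie in the bulk of the genes, SLC1A4, SLC7A8 and SLC1A5 in the upper part, and SLC7A5, at 1.67, near the far end.

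Cows were next used to see which members varied together. Over the 12 cows, 21 pairs of the 7 genes were correlated, and 3 had a Benjamini-Hochberg adjusted p under 0.05 over these pairs. The 3 pairs join SLC7A5, SLC1A5 and SLC1A4 with each other. Unadjusted, 4 pairs were under 0.05, and the median r of all pairs was 0.28. Of the 21 pairs, 6 involve SLC7A1, whose signal was near background in most cows. Over the 15 pairs without it, the same 3 pairs were called and the median r was 0.41.

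SLC1A5 and SLC1A4, both of the SLC1 family, had r = 0.94 (rho = 0.96, permutation p = 1e-05 for each, the smallest that 100000 resamples can give, adjusted p = 0.00021). It was 0.97 within CONT, 0.95 within REST, and 0.93, 0.92 and 0.98 within slides 1, 2 and 3. Without the 2 cows farthest from the median it was 0.94.

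SLC7A5 and SLC1A4 had r = 0.89 (rho = 0.85, permutation p = 7e-05 and 0.00078, adjusted p = 0.000735 and 0.00546). It was 0.87 within CONT and 0.92 within REST, and 0.83, 0.87 and 0.87 within the slides. Without the 2 cows farthest from the median, r was 0.82. Among only the 7 cows below the gap in SLC7A5 it was 0.85.

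SLC7A5 and SLC1A5 had r = 0.83 (rho = 0.86, permutation p = 0.00075 and 0.0005, adjusted p = 0.00525 for each). It was 0.88 within CONT, 0.90 within REST, and 0.81, 0.83 and 0.78 within the slides. Without the 2 farthest cows r was 0.84, and among the 7 cows below the gap it was 0.79.

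SLC7A5 and its partner SLC3A2 had no detectable relation over cows, with r = 0.00 (rho = -0.11, permutation p = 0.989 and 0.735, adjusted p = 0.989 and 0.765). It was -0.45 within CONT and 0.51 within REST, and 0.49, 0.67 and -0.72 within slides 1, 2 and 3. With so few cows these values set no close limit on the relation. The cow with the lowest SLC7A5, CONT cow 8027 at 0.68, had the highest SLC3A2, at 3.01. SLC3A2 was instead closest to SLC38A2 among the members (r = 0.65, rho = 0.54, permutation p = 0.0209 and 0.0742), which did not pass adjustment over the 21 pairs (p = 0.11 and 0.26). Centred within slide, the pair did pass (r = 0.72, adjusted permutation p = 0.0405), and within the single slides its r was 0.74, 0.71 and 0.80.

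**Figure D4:**
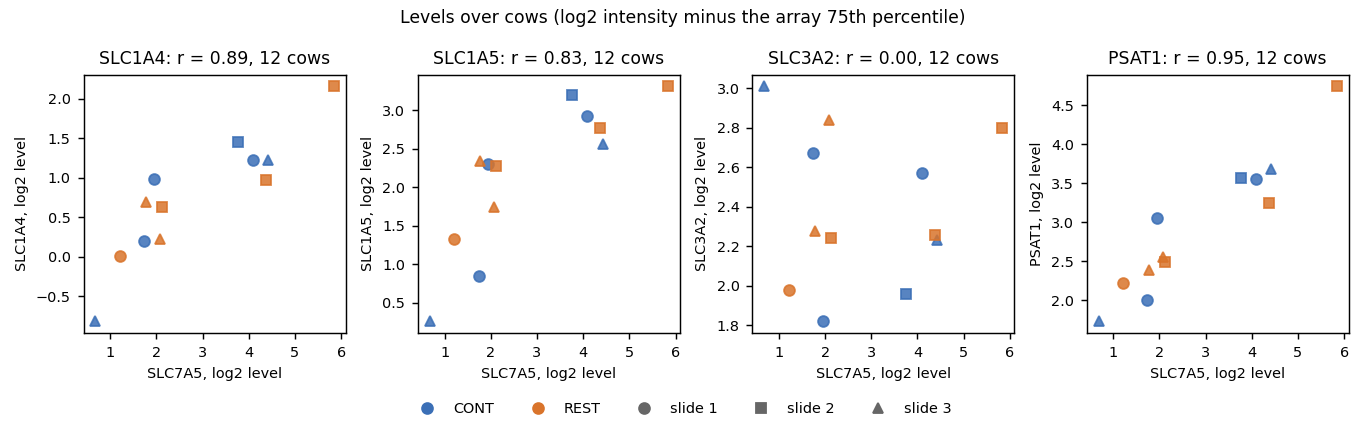
Level of SLC1A4, SLC1A5, SLC3A2 and PSAT1 against the level of SLC7A5 in the 12 cows (all log2 intensity minus the array's 75th percentile; colors are diets and marker shapes are slides). SLC1A4 (r = 0.89), SLC1A5 (r = 0.83) and PSAT1 (r = 0.95) rise with SLC7A5 in cows of both diets, and SLC3A2 (r = 0.00) does not.

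The genes whose pattern over the 12 cows was most like that of SLC7A5 were sought among 8999 named genes well above background on every array. They were PYCR1 (r = 0.954), which makes proline, PSAT1 (r = 0.949), which makes serine, and CBS (r = 0.935), which makes cystathionine from serine. They were picked for their r, which is a description with no test. PYCR1 ran from -0.47 in cow 8027 to 3.57 in cow 1015, the same lowest and highest cows as SLC7A5. PSAT1 likewise ran from 1.73 in cow 8027 to 4.74 in cow 1015. Over these 8999 genes SLC1A4 ranked 11 in likeness to SLC7A5, SLC1A5 ranked 65 and SLC3A2 ranked 4582. For SLC3A2 the most alike were UTRN (r = 0.906), PRPF39 (r = 0.882) and IQCB1 (r = 0.873), and for SLC38A2 they were LETMD1 (r = 0.881), LRATD2 (r = 0.864) and SLC18A2 (r = 0.863).

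Relations of SLC7A5, SLC1A5, SLC1A4, SLC3A2 and SLC38A2 with 86 genes of amino acid handling and milk protein that were well above background and complete on all 12 arrays, with cell marker levels and with array measures were added after these values were seen. They make 480 relations, over which p-values were adjusted. The ATF4 response list has 22 measured genes, of which 19 met this filter. For SLC7A5, 7 of the 19 had a positive r with an adjusted p under 0.05 and 0 a negative r, and the list's median r was 0.67. An r as high as the lowest of these 7, 0.76, was reached by 3.47% of the 8999 genes, whose median r was 0.02. The list was not independent of the choice of genes above, since PYCR1 and PSAT1 stand in both.

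Besides PSAT1 and PYCR1, the 7 were ASNS, asparagine synthetase (r = 0.93, rho = 0.88, adjusted permutation p = 0.0032), CHAC1, which degrades glutathione (r = 0.83), ATF4 itself (r = 0.81), ALDH18A1, the first enzyme of proline synthesis (r = 0.80), and CEBPB, a transcription factor (r = 0.76). Without the 2 cows of most extreme SLC7A5, r was 0.91 for ASNS, 0.90 for PSAT1, 0.93 for PYCR1 and 0.78 for ATF4. Centred within slide it was 0.91, 0.93, 0.95 and 0.81 in the same order. Among the 7 cows below the gap in SLC7A5, the median r of the 19 genes fell from 0.67 to 0.34. There r was 0.85 for PYCR1, 0.75 for PSAT1, 0.73 for ASNS, 0.69 for ATF4, 0.62 for CHAC1, 0.60 for CEBPB and 0.29 for ALDH18A1.

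SLC1A4 and SLC1A5 had 6 of 19 ATF4 response genes each at that threshold, with median r of 0.65 and 0.57. The r of the lowest of these 6 genes was met by 4.09% of the 8999 genes for SLC1A4 and by 6.71% for SLC1A5. SLC1A4 went with PSAT1 at r = 0.94 and with ASNS at r = 0.90, and SLC1A5 with PSAT1 at r = 0.87. SLC38A2 had 1 of 19, the serine-making phosphatase PSPH (r = 0.78), an r met by 0.144% of genes, and its median r was 0.24. SLC3A2 had 0 of 19 and a median r of -0.11. Whether the members differ in these relations was not tested.

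Genes of the other lists were called with SLC7A5 as well, and the share of all genes with an r as strong is given beside them. Of 5 milk protein genes 3 were called, namely CSN3 (0.77), CSN1S1 (0.77) and CSN1S2 (0.73), and the list's median r, 0.73, was above that of the ATF4 response. An r of 0.73 or more, as high as the lowest of these, was reached by 4.71% of the 8999 genes. Of 9 other plasma membrane carriers well above background on every array, 3 had a positive r, SLC38A3 (0.78), SLC7A10 (0.76) and SLC6A9 (0.73), and 2 a negative r, SLC6A14 (-0.82) and SLC7A7 (-0.75), with a median of 0.69. An r as strong as the weakest of these was reached by 5.28% of genes on the positive side and by 4.16% on the negative side. Both lists had a larger share of called genes than the ATF4 response, and differences between lists were not tested.

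Of 19 cytosolic aminoacyl-tRNA synthetases, which charge tRNAs with amino acids, 3 were called with a positive r, GARS1 (0.85), AARS1 (0.81) and EPRS1 (0.81), where 1.22% of genes were as high, and the median r was 0.35. Of 16 genes of arginine, glutamine and branched-chain amino acid use, 1 had a positive r, BCKDHB, a subunit of the branched-chain keto acid dehydrogenase (0.72, reached by 5.35% of genes), and 1 a negative r, GLUL, glutamine synthetase (-0.77, reached by 2.74%), with a median of -0.41. Of 18 lysosomal carriers and mTORC1 sensing genes, the glutamine carrier SLC38A7 alone was called (-0.75, reached by 4% of genes), with a median of -0.05. In these last lists, of 16 and of 18 genes, the calls are near the share over all genes and are not read as relations of the lists. The r of BCKDHB lies within the 5th to 95th percentile over all genes, -0.73 to 0.73. Below the gap in SLC7A5, the r of the called genes was 0.67 to 0.95 for the 3 milk proteins, with CSN3 the highest, and the median of that list was 0.77, above that of the ATF4 response. It was 0.82 for AARS1, 0.77 for GARS1 and 0.32 for EPRS1, while among the carriers it was 0.84 for SLC7A10, 0.68 for SLC6A9, 0.54 for SLC38A3, -0.86 for SLC6A14 and -0.10 for SLC7A7. It was -0.27 for SLC38A7, 0.12 for BCKDHB and -0.02 for GLUL. The adjusted p of these relations over all cows ran up to 0.0497, close to the threshold.

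**Figure D5:**
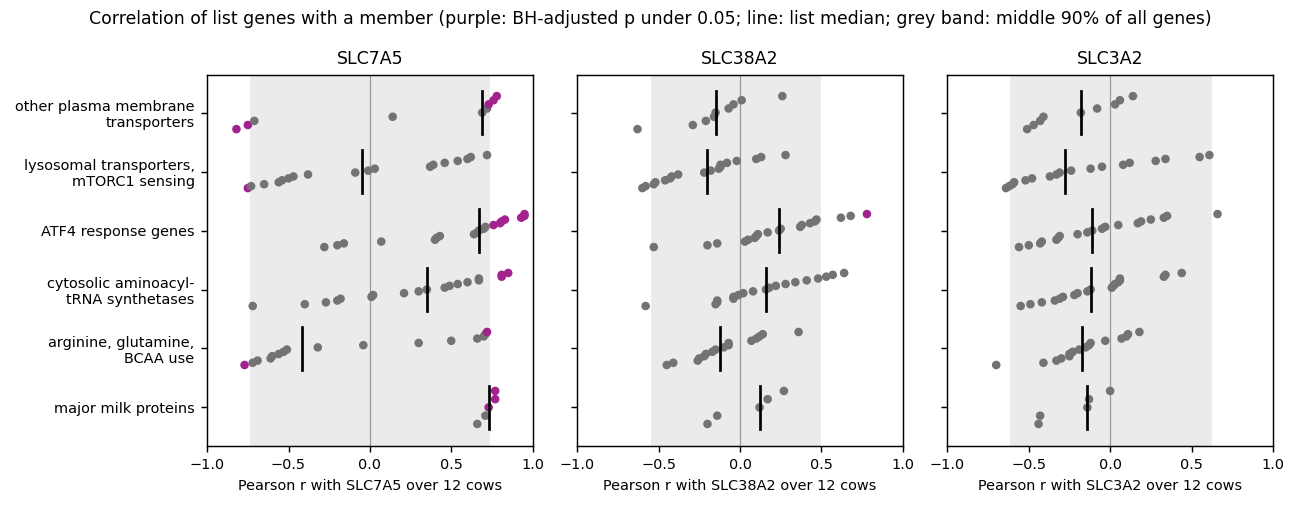
Pearson r over 12 cows between list genes and SLC7A5, SLC38A2 or SLC3A2. Each point is a gene, purple marks an adjusted p under 0.05 over 480 relations, the vertical line is the list's median, and the grey band covers the 5th to 95th percentile of r over 8999 genes (-0.73 to 0.73 for SLC7A5). ATF4 response genes reach 0.95 with SLC7A5, while 0 genes of any list pass with SLC3A2.

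Measures of the tissue and of the arrays moved with some members too. The mean level of the 14 epithelial markers had r = -0.65 with SLC7A5 (rho = -0.71, adjusted permutation p = 0.0928 for r) and r = -0.74 with SLC1A5 (adjusted permutation p = 0.0497). Over cows this marker level ran from 1.46 to 2.58 in CONT and from 1.6 to 2.36 in REST. The 14 genes include KRT5, KRT14, KRT17 and TP63, which mark basal cells, so their mean is not a level of the secretory cells alone. The 5 milk protein genes had a positive r with SLC7A5 (0.66 to 0.77). The array's 75th percentile intensity, the value subtracted from each array, had r = -0.65 with SLC7A5 (rho = -0.76, adjusted permutation p = 0.0935 for r and 0.0558 for rho) and r = 0.06 with SLC3A2. SLC3A2 rose with the percentage of spots well above background (r = 0.75, rho = 0.76, adjusted permutation p = 0.0402 for r). The part of these measures in the relations between genes was not tested.

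Genes around the transporters were compared between diets by the same limma fit, again with 0 calls after adjustment. For scale, 2.64% of the 12639 named genes had an unadjusted p under 0.05 at their brightest probe. Of 23 other plasma membrane carriers measured, 9 of them well above background on every array, 11 had a higher and 12 a lower mean in REST (7 and 16 under median scaling, 13 and 10 with slide as a block). The lowest p was that of SLC7A10, an exchanger of small neutral amino acids. SLC7A10 ran from -3.43 to -1.46 in CONT and from -2.20 to -0.61 in REST, a difference of 0.79 (SE 0.35, unadjusted p = 0.04, adjusted p = 1). Its mean was higher by more than its SE, but the groups overlapped.

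Of 22 lysosomal carriers and components of mTORC1 amino acid sensing, 9 were higher and 13 lower, with a median difference of -0.04 (12 higher and 10 lower with slide as a block). RRAGA, a Rag GTPase that brings mTORC1 to the lysosome, had the lowest p (difference -0.43, SE 0.17, unadjusted p = 0.0244, adjusted p = 1). In 5 of the 6 REST cows RRAGA was below every CONT cow. SLC38A9, the lysosomal arginine sensor, had a difference of -0.06. The 22 ATF4 response genes were split evenly, 11 higher and 11 lower, with a median difference of 0.01 (-0.05 under median scaling and -0.08 with slide as a block). Their lowest unadjusted p, 0.228, was that of EIF2AK3, an upstream kinase.

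Of 19 cytosolic aminoacyl-tRNA synthetases 3 were higher and 16 lower, with a median difference of -0.09 (-0.08 to -0.15 under the other scalings). LARS1, which charges leucine, and YARS1, which charges tyrosine, had the lowest differences of the list. LARS1 alone had an unadjusted p below the 0.05 threshold (difference -0.36, SE 0.14, unadjusted p = 0.0234, adjusted p = 1 by limma). LARS1 ran from -0.22 to 0.17 in CONT and from -0.63 to -0.10 in REST, so that each of the 6 REST values fell under the mean of CONT.

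Of 18 genes of arginine, glutamine and branched-chain amino acid use, 7 were higher and 11 lower, with a median difference of -0.09, but with slide as a block 10 were higher and 8 lower, with a median of 0.06. ARG1, arginase, ran from 3.86 to 4.72 in CONT and from 4.21 to 4.94 in REST, a difference of 0.46 (SE 0.19, unadjusted p = 0.0346, adjusted p = 1). BCAT1, which removes the amino group of leucine, isoleucine and valine, had a difference of 1.03 (SE 0.29, unadjusted p = 0.0041, adjusted p = 1). It was dim, well above background in 4 CONT and 5 REST cows, so that its size rests partly on signals near background.

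All 5 milk protein genes had a higher mean in REST, with differences from 0.19 to 0.42, but 3 were higher and 2 lower under quantile normalization, and 4 higher and 1 lower with slide as a block and without CONT cow 8027 or REST cow 0049. Their median difference was 0.35, but 0.05 under quantile normalization and 0.14 with slide as a block. Of the 5, 0 had an unadjusted p under 0.05. PAEP, the gene of beta-lactoglobulin, had the lowest (difference 0.42, SE 0.27, unadjusted p = 0.149). The probes of PAEP and CSN1S1 were saturated on 1 array each, which bounds the level there from below.

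Cell type markers were compared in the same way, and CONT cow 8027 stood apart in them. Its mean endothelial marker level was -1.75, against -0.12 to 0.11 in the other 5 CONT cows and -0.37 to 0.41 in REST. Endothelial markers were higher in REST in 8 of 8 genes (median difference 0.37), but without cow 8027 in 6 of 8, with ERG and EMCN turned and a median of 0.10. VWF, the von Willebrand factor, had the lowest p of the list (difference 0.79, unadjusted p = 0.0227, adjusted p = 1), and its difference was 0.50 without that cow. The same cow had the lowest SLC7A5, SLC1A5 and SLC1A4 of all, and without it their differences were -0.29, -0.07 and -0.23. It was also lowest in SLC7A8, whose difference was -0.46 without that cow, and in SLC7A1, whose signal was near background in most cows. Without it, r was 0.80 for SLC7A5 with SLC1A5, 0.88 for SLC7A5 with SLC1A4 and 0.90 for SLC1A5 with SLC1A4.

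Epithelial markers were higher in 8 and lower in 6 of 14 genes (median difference 0.01), but in 4 and 10 without REST cow 7043, in 10 and 4 without CONT cow 0055, CONT cow 8027 or REST cow 0049 and with slide as a block, and in 6 and 8 under median scaling. More were lower than higher also without CONT cow 9040, 1076, 0015 or 1024 or REST cow 1018. Their lowest p was that of KRT19, a keratin (0.48, unadjusted p = 0.14). The keratins KRT5, KRT7, KRT8 and KRT18 had lower means in REST, and the lowest difference of the list was -0.49. Leukocyte markers were higher in 10 and lower in 6 of 16, but in 6 and 10 without REST cow 1058 and in 7 and 9 without CONT cow 1076. The T cell genes of that list had differences of both signs, with CD3D of the T cell receptor complex at 0.60 (unadjusted p = 0.04, adjusted p = 1), CD3E of the same complex at -0.09 (unadjusted p = 0.779) and CD2 at 0.15 (unadjusted p = 0.44). PTPRC (CD45), common to leukocytes, was at -0.34 (unadjusted p = 0.335). Fibroblast markers were lower in 7 of 9, with LUM at -0.84, COL1A1 at -0.72 and COL1A2 at -0.65 (unadjusted p = 0.00417, 0.0396 and 0.0324, adjusted p = 1 for each). Adipocyte markers were higher in 5 of 6 (3 of 6 with normexp), but only 2 of the 6 were well above background on every array. FABP4 had the lowest p of the list (1.20, unadjusted p = 0.0727), with CONT cow 8027 at 2.87 and the nearest CONT cow at 5.78. LEP, the only lower gene, had a difference of -1.02. Smooth muscle and myoepithelial markers were higher in 1 of 7, or 5 of 7 without CONT cow 0055. OXTR, the oxytocin receptor, had the lowest p of that list (-0.50, unadjusted p = 0.0734). The part of cell composition in the transporter values was not tested.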

How the data were processed

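The authors ran 1 single-color (Cy3) Agilent bovine array on the RNA of each mammary biopsy, and scans were read with Feature Extraction (11.0.1.1 per the file headers). The deposited values used are spot intensities, already background-corrected, detrended and with dim values replaced by that software, and not normalized between arrays. The deposited flags are 0 or 1 calls for spots well above background, saturated or outliers, and the series' value table holds the same intensities as the scanner files (largest difference 0). Non-control spots (43803 of 45220) were kept, outlier spots were set to missing, log2 intensities were reduced by the array's 75th percentile, and spots of a probe were averaged. Of 43653 probes, 205 had a missing value and 7052 were never well above background. All probes entered the fit. Probes were named through RefSeq accessions (26832 probes). Array annotation and name table use different genome assemblies, and therefore coordinates are left out.

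Diets were compared by limma 3.58.1 (R 4.3.3; lmFit and eBayes, two-sided), with Westfall-Young adjustment over 100 drawn from 462 distinct ways to split them, and Benjamini-Hochberg beside it. Single probes had exact permutation tests, whose smallest p is 0.00216. Correlations used 100000 resamples in Python 3.11.15. Scripts were tested on simulated data. Groups came from the diet label. That cows are separate animals comes from the titles. The number of arrays, 12, limits the precision. The members, gene lists and tests were chosen with earlier results of these data known. Named list genes are those with an unadjusted p under 0.05 (at most 5 per list), otherwise the lowest p, and for correlations the 3 most alike genes. YARS1, SLC38A9, CD3E, CD2, PTPRC, ERG, EMCN and the genes named for their relation with a transporter were chosen after their values were seen. The same holds for LEP, KRT5, KRT7, KRT8 and KRT18 where their differences between diets are named. Alternatives were Benjamini-Hochberg, quantile normalization, median scaling, normexp (offset 50, on median spot and local background signals), the series' table, a filter on probes well above background, outlier spots kept, slide as a block, an intensity trend, the mean over a gene's probes, and each cow left out.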

Additional observations from a re-analysis of the deposited data

Results flagged for a closer look

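Of 74 groups of 6 cows tested for a value far from the others (transporters, list levels, genes named from the lists, array measures), 9 had a cow or array set apart, where chance gives 1 in 20 and the groups share cows. None was a transporter. The median intensity of the negative control spots was 15.82 in REST cow 0078, whose nearest REST cow had 4.96. That array was the only REST array on slide 1, where the 3 CONT arrays were bright as well. In the same cow SLC7A5 was at 1.21, the lowest of REST, and without it the SLC7A5 difference was 0.46 in place of 0.13. CONT cow 8027 was lowest in CONT for the endothelial marker level (-1.75, nearest -0.12), for VWF (0.12, nearest 1.5) and for the adipocyte gene FABP4 (2.87, nearest 5.78), and REST cow 7043 was lowest in REST for the endothelial marker level (-0.37, nearest 0.14). REST cow 1015, highest in SLC7A5, was also highest in REST for the mean level of aminoacyl-tRNA synthetases (2.07, nearest 1.75). REST cow 0049 was lowest in REST for the level of arginine, glutamine and branched-chain amino acid genes (0.33, nearest 0.63). RRAGA was highest in REST in cow 1058 (2.53, nearest 2.12), and ARG1 highest in CONT in cow 0015 (4.72, nearest 4.09).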

How the results depend on the processing

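All 22 alternatives called 0 probes, 0 members and 0 genes of the pathway lists. The median difference of 6 members ran from -0.15 to 0.17 with 1 cow left out and from -0.08 to 0.10 otherwise. No member's sign held throughout. Median scaling gave -0.033 for SLC3A2 and -0.0043 for SLC38A2, the mean over a gene's probes gave -0.0035 for SLC3A2, and slide as a block gave -0.56 for SLC7A5, -0.076 for SLC1A5, -0.19 for SLC1A4 and -0.087 for SLC38A2. Leaving out 1 cow, the difference ran from -0.46 to 0.46 for SLC7A5, -0.088 to 0.15 for SLC3A2, -0.067 to 0.52 for SLC1A5, -0.23 to 0.23 for SLC1A4, -0.067 to 0.14 for SLC38A2 and -0.46 to 0.079 for SLC7A8, with an adjusted p of 1 each time. The count of correlated pairs was 3 to 4 with 1 cow left out and 6 when values were centred within slide, of which 2 join SLC7A1, near background in most cows, to SLC1A5 (r = 0.78) and SLC1A4 (r = 0.68), and 4 remained without SLC7A1. The r of SLC7A5 and SLC3A2 was -0.052 under quantile normalization, -0.24 without the 2 farthest cows, and -0.26 to 0.29 with 1 cow left out. SLC3A2 with SLC38A2 passed adjustment under quantile normalization (r = 0.74), within slide (r = 0.72) and without CONT cow 9040 (r = 0.77). With 1 cow left out, the number of genes higher in REST ran from 7 to 14 of 23 other carriers, 8 to 11 of 22 lysosomal and mTORC1 genes, 7 to 15 of 22 ATF4 response genes, 2 to 6 of 19 synthetases and 6 to 9 of 18 arginine, glutamine and branched-chain genes. The cause of these changes was not tested. The relations with list genes, the list counts with 1 cow left out, the pairs without SLC7A1, the spread beside other genes and the values below the gap were chosen after seeing the data. No paired analysis was possible because the labels give every cow the same replicate number and the cows differ between diets. Dim probes (SLC7A1, the weaker probes of SLC1A4 and SLC7A5) limit what could be measured.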
